A study of Mus musculus with 12 samples.

Results

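The 42 genes described here are components and feedback inhibitors of the NF-kB pathway, chosen by name: they are the rows of the deposited count table whose Ensembl identifiers map to a fixed list of mouse symbols, 42 of 46603 genes. This list and the other gene lists below were chosen with earlier results of these data known. All 42 genes passed the filter on low counts in each comparison. They were read in bulk RNA sequencing of 12 libraries, with 3 biological replicates in each of 4 groups: ileum of TNFdARE mice, ileum of wild-type (WT) littermates, synovium of the ankle of TNFdARE mice and ankle synovium of WT littermates. TNFdARE mice carry a germline deletion of the AU-rich element of Tnf, and the strain is known for inflammation of the ileum and of the joints. It is the element, where present, that shortens the life of the Tnf message. No treatment, age, sex or zygosity is given in the labels, and they do not say whether ileum and synovium came from the same animals.

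NF-kB is a family of dimeric transcription factors held in the cytoplasm by IkB proteins. In the canonical branch, signals from receptors such as those for TNF pass through TRAF and cIAP proteins, linear ubiquitin chains and the kinase TAK1 to the IKK complex, which marks IkB for destruction. In the non-canonical branch, NIK (Map3k14) accumulates when TRAF and cIAP proteins release it and drives processing of the Nfkb2 product into a partner of RelB. Many inhibitors of the pathway, among them IkB-alpha and the ubiquitin-editing enzyme A20, are themselves NF-kB target genes and act as feedback.

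Library totals lay between 14267834 and 16224402 counts. The 42 genes together took 0.447%, 0.276% and 0.370% of the counts in TNFdARE ileum against a range of 0.223% to 0.230% in WT ileum. Their share was 0.302% to 0.317% in TNFdARE synovium, against 0.186% to 0.217% in WT synovium. Levels are in CPM, counts relative to library totals adjusted by TMM scaling, and are listed in the order of replicates 1, 2 and 3. Tnf itself, the modified gene, had 82.7, 17.2 and 47.3 CPM in TNFdARE ileum against 2.63, 1.39 and 1.62 CPM in WT ileum, and 38.4, 32.5 and 28.3 CPM in TNFdARE synovium against 2.15, 2.02 and 1.89 CPM in WT synovium. The tissue labels were borne out by markers: 10 epithelial genes summed to 16.5 to 32.1 CPM in synovium libraries, where Alpi was at 0, and to 13300 to 20100 CPM in ileum libraries. The 10 fibroblast genes summed to 44500 to 48700 CPM in TNFdARE synovium against 54500 to 92200 CPM in WT synovium, and to 1340 to 1900 CPM in ileum libraries. Singly they moved both ways in TNFdARE synovium: 3 were higher (Pdpn, Thy1 and Lum) and 3 lower (Prg4, Htra4 and Clic5). These calls by edgeR at an adjusted p under 0.05 stand beside 13.1% of all genes higher and 10.7% lower. Markers of other cells moved with genotype. The summed level of 10 macrophage genes was 5500, 1390 and 3260 CPM in TNFdARE ileum against 407 to 545 CPM in WT ileum, and 5950 to 7760 CPM in TNFdARE synovium against 2090 to 2630 CPM in WT synovium. Skeletal muscle genes summed to 1620 to 6690 CPM in TNFdARE synovium against 8840 to 19000 CPM in WT synovium. Also lower in TNFdARE synovium without overlap were the sums of smooth muscle genes (784 to 884 CPM against 1510 to 1910 CPM in WT synovium), endothelial genes (463 to 556 CPM against 611 to 653 CPM) and B cell genes (72.9 to 150 CPM against 154 to 318 CPM). In bulk tissue, a change in the number of cells of a type and a change of RNA per cell cannot be told apart, and the part of these markers in the results below was not tested.

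The DNA upstream of 6 of the genes is shown because it carries the motif that names the family. RefSeq promoter windows (GRCm38.p6), from 250 bases before to 50 bases after a transcript start, were matched by symbol to 33 of the 42 genes. The kappaB consensus, a 10-letter motif scanned on both strands, was in the windows of 14 of the 33 (42.4%), against 2581 of 27018 genes with a window (9.55%) and 8.46% of 32841 windows. A stricter 9-letter form, GGGNNTTCC, which overlaps the consensus in most matches, was in 10 of the 33 (30.3%) against 6.58% of genes and 5.82% of windows. The 6 shown were taken from those of the 14 whose upstream bases overlap no annotated exon: the inhibitors Nfkbie (chr17:45555450-45555699, plus strand), Nfkbia (chr12:55492648-55492897, minus strand), Tnip3 (chr6:65590148-65590397, plus strand), Tnip1 (chr11:54962941-54963190, minus strand) and Nfkbid (chr7:30422156-30422405, plus strand), and the adaptor Traf3 (chr12:111166120-111166369, plus strand). Cyld also met this condition and is not shown. Each sequence shown is the 250 bases upstream of the start, 5′ to 3′ on the strand of the gene, with matches to the consensus in capitals.
Nfkbie: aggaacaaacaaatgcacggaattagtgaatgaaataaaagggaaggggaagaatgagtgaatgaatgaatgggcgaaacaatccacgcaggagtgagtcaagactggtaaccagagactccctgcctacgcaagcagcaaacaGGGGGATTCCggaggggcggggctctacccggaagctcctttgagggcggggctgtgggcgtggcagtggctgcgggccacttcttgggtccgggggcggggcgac
Nfkbia: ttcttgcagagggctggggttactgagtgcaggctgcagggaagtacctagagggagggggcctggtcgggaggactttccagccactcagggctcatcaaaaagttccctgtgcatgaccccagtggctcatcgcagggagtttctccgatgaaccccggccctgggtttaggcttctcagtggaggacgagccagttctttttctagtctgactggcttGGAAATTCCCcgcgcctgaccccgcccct
Tnip3: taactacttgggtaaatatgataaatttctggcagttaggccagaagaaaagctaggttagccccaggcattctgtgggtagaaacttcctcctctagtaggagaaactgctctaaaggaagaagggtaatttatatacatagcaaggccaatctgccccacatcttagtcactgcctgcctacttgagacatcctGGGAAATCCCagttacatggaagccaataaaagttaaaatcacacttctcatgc
Tnip1: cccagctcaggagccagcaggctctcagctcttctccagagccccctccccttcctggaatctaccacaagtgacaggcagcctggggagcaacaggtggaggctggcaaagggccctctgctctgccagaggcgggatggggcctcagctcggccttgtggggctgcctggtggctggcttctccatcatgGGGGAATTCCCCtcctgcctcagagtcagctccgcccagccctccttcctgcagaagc
Nfkbid: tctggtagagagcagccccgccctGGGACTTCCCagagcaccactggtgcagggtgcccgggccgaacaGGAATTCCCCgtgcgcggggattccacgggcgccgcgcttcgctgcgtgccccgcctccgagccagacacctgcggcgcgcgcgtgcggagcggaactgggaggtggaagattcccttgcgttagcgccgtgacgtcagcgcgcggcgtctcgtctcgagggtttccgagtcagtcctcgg
Traf3: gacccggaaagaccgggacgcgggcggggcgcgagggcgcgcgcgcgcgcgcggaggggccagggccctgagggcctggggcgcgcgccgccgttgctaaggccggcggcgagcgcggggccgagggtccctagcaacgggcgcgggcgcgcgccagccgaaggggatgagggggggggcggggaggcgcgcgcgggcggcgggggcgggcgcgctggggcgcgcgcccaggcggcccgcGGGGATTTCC
In Tnip1 the capitals hold 4 overlapping matches, on both strands, between 58 and 47 bases before the start. In Traf3 the match ends at the base next to the start, in Nfkbia it lies 29 to 20 bases and in Nfkbie 106 to 97 bases before it. Nfkbid has separate matches starting 226 and 181 bases upstream. A match describes letters in a window and is not evidence of a bound site.

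In the ileum, 11 of the 42 genes rose in TNFdARE mice, and their median log2 fold change was 0.51 against 0.00 over all 15462 genes tested. The 11 (26.2%) stand beside 4.12% of all genes called higher, 1.57% called lower and 5.68% called in either direction (edgeR's quasi-likelihood test, Benjamini-Hochberg adjusted p under 0.05 over all genes). They were the subunits Nfkb2 and Rel, the inhibitors Nfkbie and Tnip3, the deubiquitinase Cyld, the adaptor Traf3, the ubiquitin ligases Birc2 and Birc3, the kinases Map3k8 and Map3k14, and Tnfaip8. None of the 42 fell by edgeR, DESeq2 or limma-voom, and none was lower at an unadjusted p under 0.05 either, where 29 were higher by edgeR. Fold changes were above 0 in 38 of 42 genes, against 49.7% of all genes. In 26 of 42 the lowest TNFdARE library exceeded the highest WT library, and in 1 (Chuk) all TNFdARE libraries lay below, against 18.9% and 18.4% of all genes. The ileum calls were fragile: 2 of the 42 genes were called without TNFdARE replicate 1, 29 without TNFdARE replicate 2 and 0 without TNFdARE replicate 3 or without WT replicate 1, 2 or 3. Limma-voom called 0 of the 42 and 0 of all genes, with 26 of the 42 higher at an unadjusted p under 0.05, and DESeq2 called 23. With replicate number as a block 14 were called: Map3k14, Map3k8, Rel and Traf3 missed the threshold (adjusted p = 0.0512, 0.056, 0.0593 and 0.0591), and Nfkbia, Nfkbid, Relb, Tnfaip2, Tnfaip3, Tnip1 and Traf1 passed (adjusted p between 0.0235 and 0.0494).

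In the synovium, 26 of the 42 genes rose and the median log2 fold change was 0.53 against 0.00 over all 15599 genes tested. The 26 (61.9%) stand beside 13.1% of all genes called higher, 10.7% called lower and 23.8% called in either direction. All 5 subunits, all 4 genes of A20 and its binding proteins, both cIAP ligases and both CBM genes were among them. None of the 42 fell by edgeR, DESeq2 or limma-voom, and none was lower at an unadjusted p under 0.05 by edgeR, where 29 were higher. Fold changes were above 0 in 39 of 42 genes, against 50.4% of all genes. In 29 of 42 the TNFdARE libraries all lay above the WT libraries and in 0 below, against 20.7% and 23.2% of all genes. Leaving out a library left between 22 and 24 genes called: Ikbkb lost its call without any of the 6 libraries, Rela without any but TNFdARE replicate 3, Rel without TNFdARE replicate 2 or 3 or WT replicate 1 or 2, and Tnip2 without TNFdARE replicate 1 or 2 or WT replicate 1 or 3. In a fit over all 12 libraries 20 were called, and Ikbkb, Map3k8, Rel, Rela, Tnfaip2 and Tnip2 did not pass (adjusted p between 0.062 and 0.276).

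Of the 11 genes called in the ileum, 10 were also called in the synovium, which is 90.9% of the ileum's calls and 38.5% of the synovium's 26. The exception was Cyld. Over all genes, 280 of the 637 called higher in the ileum were also called higher in the synovium, 44.0% of the ileum's and 13.7% of the synovium's. The tissues share no libraries. Called in neither were 15 genes: Nfkbib, Nfkbid, Otulin, all 3 members of the linear ubiquitin ligase, Traf5, Traf6, Chuk, Ikbkg, Tbk1, Map3k7, Tab1, Tab2 and Tab3.

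**Figure D1:**
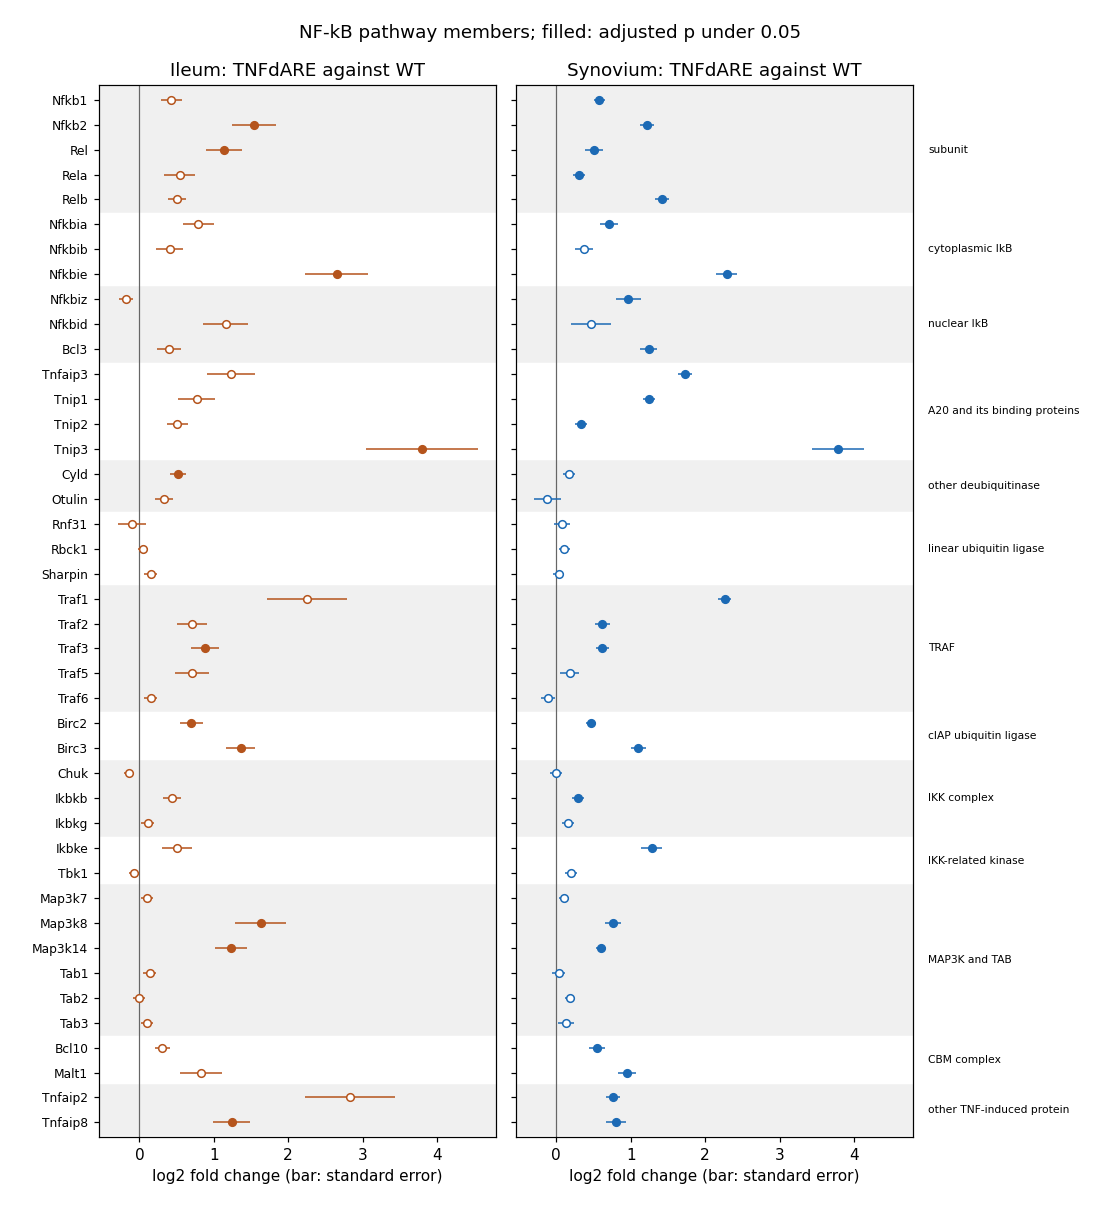
Log2 fold change of TNFdARE over WT for each of the 42 genes, grouped by role, in the ileum (left) and the synovium (right). Points are edgeR estimates with bars of 1 standard error, and filled points had an adjusted p under 0.05, 11 in the ileum and 26 in the synovium.

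Among the 5 DNA-binding subunits, Nfkb2 and Relb, the pair of the non-canonical branch, had the largest fold changes in the synovium, and Nfkb2 and Rel had the largest in the ileum. Nfkb2 had 218, 96.9 and 176 CPM in TNFdARE ileum against 60.3, 50.1 and 59.4 CPM in WT ileum, and 107, 107 and 104 CPM in TNFdARE synovium against 42.1, 45.1 and 52.2 CPM in WT synovium. Its log2 fold change was 1.54 ± 0.30 in the ileum (SE, adjusted p = 0.0461) and 1.22 ± 0.09 in the synovium (adjusted p = 0.000458). No TNFdARE library overlapped a WT library in either tissue, although TNFdARE ileum replicate 2 stood well below its fellows. Exons of other genes on the opposite strand cover 18.1% of the exonic length of Nfkb2, and whether reads were counted by strand is not given in the sources used here. Relb had 152, 113 and 145 CPM in TNFdARE ileum against 96.0, 93.3 and 102 CPM in WT ileum, and 66.0, 63.1 and 58.6 CPM in TNFdARE synovium against 22.9, 21.7 and 27.1 CPM in WT synovium. It rose by 1.42 ± 0.10 in the synovium (adjusted p = 0.000453), and its ileum value of 0.50 ± 0.12 did not pass (adjusted p = 0.055, or 0.0494 with replicate number as a block), though the ileum groups did not overlap.

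The 3 subunits tied to the canonical branch had smaller fold changes in the synovium. Rel, which encodes c-Rel of lymphoid and myeloid cells, had 61.0, 30.6 and 43.3 CPM in TNFdARE ileum against 20, 21.6 and 19.8 CPM in WT ileum, and 43.0, 44.6 and 49.3 CPM in TNFdARE synovium against 28.3, 31.8 and 38.0 CPM in WT synovium. It rose by 1.14 ± 0.24 in the ileum (adjusted p = 0.0497, or 0.0593 with the block) and by 0.51 ± 0.12 in the synovium (adjusted p = 0.0254). The groups did not overlap in either tissue. Nfkb1, whose product is processed to the partner of RelA, had 191, 129 and 162 CPM in TNFdARE ileum against 121, 119 and 119 CPM in WT ileum, and 167, 177 and 157 CPM in TNFdARE synovium against 111, 115 and 116 CPM in WT synovium. It rose in the synovium (0.58 ± 0.07, adjusted p = 0.00205) and had 0.43 ± 0.14 in the ileum (adjusted p = 0.101). Rela, the main activating subunit, had 87.8, 49.8 and 69.6 CPM in TNFdARE ileum against 54.7, 42.9 and 45.9 CPM in WT ileum, which overlap. In TNFdARE synovium it had 113, 118 and 98.5 CPM against 88.5, 93.8 and 89.4 CPM in WT synovium, and its rise of 0.31 ± 0.08 (adjusted p = 0.0321) was the smallest among the 5 subunits.

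Of the 3 cytoplasmic IkB genes, which hold dimers out of the nucleus, Nfkbie had the largest fold changes. Nfkbie (IkB-epsilon) had 83.7, 27.5 and 57.4 CPM in TNFdARE ileum against 10, 8.17 and 8.72 CPM in WT ileum, and 92.2, 78.3 and 81.6 CPM in TNFdARE synovium against 14.1, 18 and 20.6 CPM in WT synovium. It rose by 2.65 ± 0.42 in the ileum (adjusted p = 0.0404) and by 2.29 ± 0.14 in the synovium (adjusted p = 0.000276). The lowest TNFdARE library was above the highest WT library in each tissue. Nfkbia (IkB-alpha, the fast feedback inhibitor) had 287, 165 and 241 CPM in TNFdARE ileum against 138, 118 and 147 CPM in WT ileum, and 185, 180 and 174 CPM in TNFdARE synovium against 92.5, 125 and 119 CPM in WT synovium. It rose in the synovium (0.71 ± 0.12, adjusted p = 0.00632), and its 0.79 ± 0.21 in the ileum had an adjusted p of 0.069, or 0.0384 with replicate number as a block. Nfkbib (IkB-beta, a slowly degraded member) had 54.1, 35.6 and 46.6 CPM in TNFdARE ileum against 39.8, 30.8 and 32.3 CPM in WT ileum, and 24.7, 20.6 and 24.6 CPM in TNFdARE synovium against 18.1, 16.9 and 20.4 CPM in WT synovium. Neither difference passed (0.41 ± 0.18, adjusted p = 0.173, and 0.37 ± 0.12, adjusted p = 0.0642), and that of the synovium passed with the block (adjusted p = 0.0316) or without TNFdARE replicate 2 (adjusted p = 0.0457). Opposite-strand exons of other genes cover 16.4% of the exonic length of Nfkbib.

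**Figure D2:**
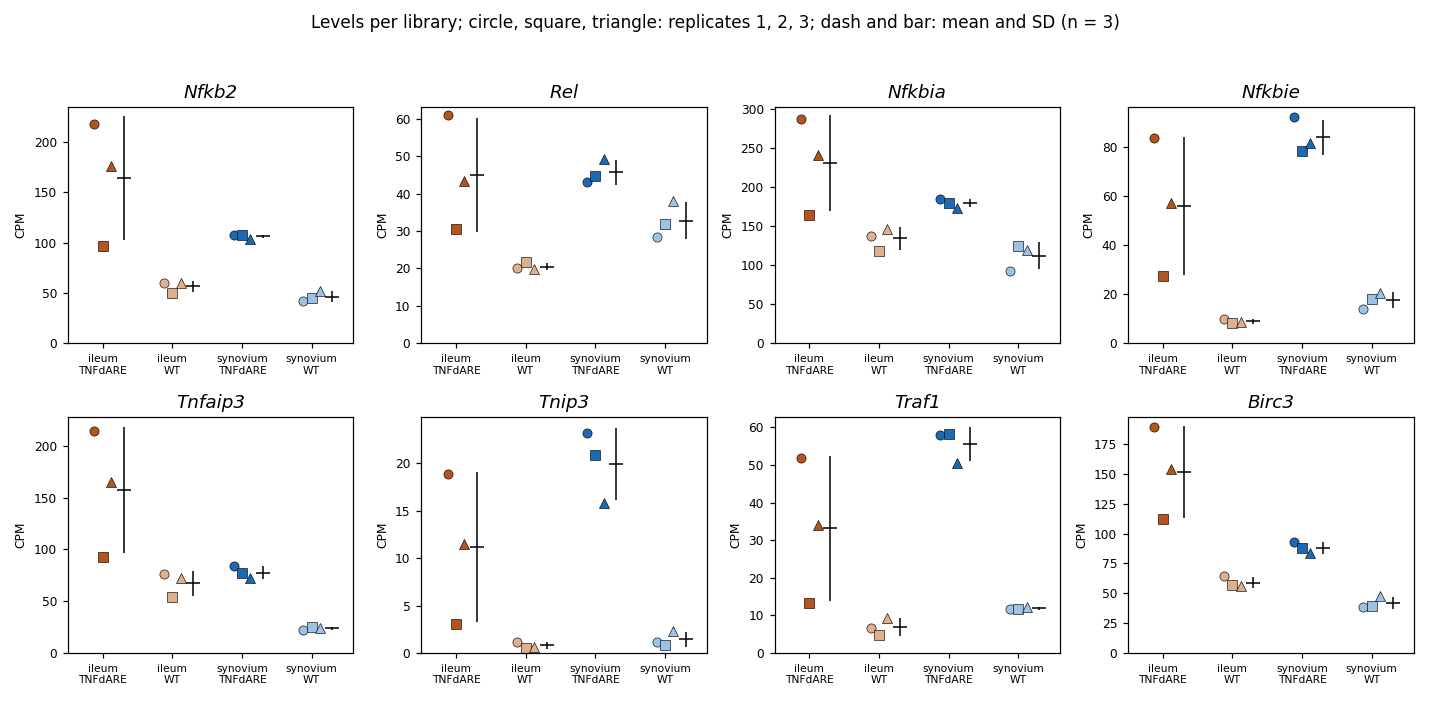
CPM per library of 8 of the genes in the 4 groups, with replicates as circle, square and triangle and the mean with its SD beside them (n = 3). In each gene shown, the TNFdARE libraries lie above the WT libraries of the same tissue, and TNFdARE ileum has the widest spread.

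The nuclear IkB proteins bind NF-kB subunits on DNA and tune which targets are transcribed. Nfkbiz (IkB-zeta, an inducer of secondary response genes) had 133, 138 and 130 CPM in TNFdARE ileum against 163, 131 and 162 CPM in WT ileum, and 49.2, 63.0 and 64.1 CPM in TNFdARE synovium against 37.8, 25.8 and 28.1 CPM in WT synovium. It rose in the synovium (0.97 ± 0.17, adjusted p = 0.00861), where the groups did not overlap, and stood at -0.18 ± 0.10 in the ileum (adjusted p = 0.264), where they did. Bcl3, a partner of the Nfkb1 and Nfkb2 products, had 73.7, 56.7 and 88.4 CPM in TNFdARE ileum against 57.5, 50.6 and 58.2 CPM in WT ileum, and 46.8, 40.8 and 39.0 CPM in TNFdARE synovium against 16.3, 18.4 and 20 CPM in WT synovium. It too rose in the synovium (1.24 ± 0.11, adjusted p = 0.00077) and not in the ileum (0.40 ± 0.16, adjusted p = 0.159). Nfkbid passed in neither tissue, at 9.85 to 20.6 CPM in TNFdARE ileum against 5.25 to 7.34 CPM in WT ileum (1.16 ± 0.30, adjusted p = 0.0638, or 0.0368 with the block), and at 11.7 to 12.8 CPM in TNFdARE synovium against 5.33 to 11.8 CPM in WT synovium (0.47 ± 0.27, adjusted p = 0.246).

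Tnfaip3 encodes A20, which removes and edits ubiquitin chains to end signalling, and the Tnip genes encode A20-binding proteins. Tnfaip3 had 214, 92.8 and 165 CPM in TNFdARE ileum against 76.6, 53.7 and 72.0 CPM in WT ileum, and 84.1, 76.9 and 72.0 CPM in TNFdARE synovium against 22.1, 24.9 and 24.6 CPM in WT synovium. It rose by 1.73 ± 0.09 in the synovium (adjusted p = 0.000126), and its 1.23 ± 0.32 in the ileum did not pass (adjusted p = 0.0729). It passed with replicate number as a block (adjusted p = 0.0247), with DESeq2, with all 12 libraries and without TNFdARE replicate 2. All TNFdARE libraries were above all WT libraries in both tissues. Tnip3 had the largest fold change of the 42 genes, from low levels: 18.9, 3.1 and 11.5 CPM in TNFdARE ileum against 1.18, 0.584 and 0.633 CPM in WT ileum, and 23.2, 20.9 and 15.8 CPM in TNFdARE synovium against 1.18, 0.846 and 2.35 CPM in WT synovium. The WT values rest on 8 to 17 counts per ileum library and 13 to 36 per synovium library. It rose by 3.80 ± 0.75 in the ileum (adjusted p = 0.0471) and by 3.79 ± 0.35 in the synovium (adjusted p = 0.000998), and no libraries of the 2 genotypes overlapped. Tnip1 had 225, 113 and 168 CPM in TNFdARE ileum against 111, 86.9 and 101 CPM in WT ileum, and 105, 97.7 and 93.5 CPM in TNFdARE synovium against 40.2, 43.7 and 44.4 CPM in WT synovium. Its synovial rise was 1.24 ± 0.08 (adjusted p = 0.000238), while the ileum value of 0.77 ± 0.25 had an adjusted p of 0.109, or 0.0469 with the block. Tnip2 had 26.9, 19.3 and 22.7 CPM in TNFdARE ileum against 16.4, 16.6 and 15.5 CPM in WT ileum, and 40.4, 42.1 and 37.0 CPM in TNFdARE synovium against 30.7, 34.0 and 32.1 CPM in WT synovium. It rose in the synovium by 0.33 ± 0.08 (adjusted p = 0.0288) and had 0.51 ± 0.14 in the ileum (adjusted p = 0.0702).

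Of the 5 other genes that build or remove linear ubiquitin chains, only Cyld passed, in the ileum. Cyld, a deubiquitinase of linear and other chains, had 137, 106 and 125 CPM in TNFdARE ileum against 91.1, 80.9 and 85.9 CPM in WT ileum, and 66.7, 72.3 and 75.6 CPM in TNFdARE synovium against 66.0, 61.0 and 68.0 CPM in WT synovium. The ileum rise was 0.52 ± 0.11 (adjusted p = 0.0472), against 0.17 ± 0.08 in the synovium (adjusted p = 0.166), where the groups overlapped. The test of the difference between tissues did not pass for Cyld (synovium minus ileum, -0.38, adjusted p = 0.0961). Otulin, which cuts linear chains alone, had 21.8, 17.5 and 17.4 CPM in TNFdARE ileum against 15.0, 14.5 and 15.7 CPM in WT ileum, and 23.3, 22.1 and 23.3 CPM in TNFdARE synovium against 33.5, 21.2 and 21.8 CPM in WT synovium. Its fold changes were 0.33 ± 0.12 (adjusted p = 0.132) and -0.12 ± 0.18 (adjusted p = 0.648), and WT synovium replicate 1 lay apart from the other two.

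The linear ubiquitin ligase itself (LUBAC) has the catalytic subunit Rnf31 and the partners Rbck1 and Sharpin. Rnf31 had 65.5, 42 and 63.7 CPM in TNFdARE ileum against 62.2, 68.9 and 52.6 CPM in WT ileum, and 34.4, 35.0 and 37.6 CPM in TNFdARE synovium against 29.6, 37.8 and 35.6 CPM in WT synovium. Rbck1 had 137, 122 and 135 CPM in TNFdARE ileum against 127, 130 and 124 CPM in WT ileum, and 89.6, 102 and 93.1 CPM in TNFdARE synovium against 85.5, 96.8 and 85.8 CPM in WT synovium. Groups overlapped in every case. Across the 3 genes, log2 fold changes ran from -0.10 to 0.15 in the ileum and from 0.03 to 0.11 in the synovium, with standard errors between 0.07 and 0.19, and the smallest adjusted p was 0.283. Sharpin had 43.7 to 51.5 CPM in TNFdARE ileum against 42.8 to 45.4 CPM in WT ileum, and 37.8 to 40.1 CPM in TNFdARE synovium against 38.4 to 40.2 CPM in WT synovium.

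Among the 5 TRAF adaptors, which carry receptor signals to kinases and ubiquitin ligases, Traf1 had the largest fold changes. Traf1, itself induced by NF-kB, had 52.0, 13.4 and 34.1 CPM in TNFdARE ileum against 6.79, 4.74 and 9.43 CPM in WT ileum, and 58.1, 58.3 and 50.5 CPM in TNFdARE synovium against 11.6, 11.8 and 12.2 CPM in WT synovium. Its log2 fold changes were nearly equal, 2.25 ± 0.54 in the ileum (adjusted p = 0.0624, or 0.0367 with the block) and 2.26 ± 0.09 in the synovium (adjusted p = 6.47e-05), and the synovium value alone passed. Traf3, which restrains NIK, had 112, 66.1 and 91.9 CPM in TNFdARE ileum against 46.7, 50.4 and 50.4 CPM in WT ileum, and 98.6, 105 and 94.5 CPM in TNFdARE synovium against 73.9, 59.5 and 64.5 CPM in WT synovium. It rose by 0.88 ± 0.19 in the ileum (adjusted p = 0.0492, or 0.0591 with the block) and by 0.62 ± 0.09 in the synovium (adjusted p = 0.00429). Traf2, which recruits the cIAP ligases, had 57.1, 32.9 and 48.5 CPM in TNFdARE ileum against 27.0, 31.2 and 26.9 CPM in WT ileum, and 36.7, 40 and 35.3 CPM in TNFdARE synovium against 22.0, 25.6 and 26.7 CPM in WT synovium. Its synovial rise was 0.62 ± 0.10 (adjusted p = 0.00676), against 0.71 ± 0.20 in the ileum (adjusted p = 0.0795). These 3 genes had no overlap between genotypes in either tissue.

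Traf5 and Traf6 passed in neither tissue. Traf5, an adaptor of several TNF receptor family members, had 18.5, 10.3 and 12.3 CPM in TNFdARE ileum against 8.73, 8.03 and 8.44 CPM in WT ileum, and 13.4, 14.9 and 12.3 CPM in TNFdARE synovium against 10.6, 13 and 12.9 CPM in WT synovium. Its fold changes were 0.71 ± 0.23 (adjusted p = 0.0955) and 0.18 ± 0.13 (adjusted p = 0.361). Traf6, the ligase of Toll-like and interleukin-1 receptors, had 54.5 to 60.7 CPM in TNFdARE ileum against 49.2 to 57.4 CPM in WT ileum, and 40.3 to 44.8 CPM in TNFdARE synovium against 43.3 to 49.8 CPM in WT synovium.

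Both cIAP ubiquitin ligases, which modify RIPK1 and target NIK for destruction, rose in both tissues. Birc3 had 189, 112 and 154 CPM in TNFdARE ileum against 64.1, 56.8 and 55.8 CPM in WT ileum, and 92.9, 87.6 and 83.5 CPM in TNFdARE synovium against 38.3, 39.6 and 47.6 CPM in WT synovium. Its rises were 1.36 ± 0.19 (adjusted p = 0.0404) and 1.10 ± 0.10 (adjusted p = 0.000774). Birc2 had 117, 80.7 and 103 CPM in TNFdARE ileum against 58.1, 58.6 and 69.2 CPM in WT ileum, and 64.4, 58.2 and 58.7 CPM in TNFdARE synovium against 45.7, 42.7 and 45.2 CPM in WT synovium. It rose by 0.70 ± 0.15 (adjusted p = 0.049) and by 0.47 ± 0.07 (adjusted p = 0.0046). The genotypes did not overlap for either gene. Birc2 and Birc3 are neighbours on chromosome 9, 11.6 kb apart, and as related genes they may share reads where sequence is identical.

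Of the 3 genes of the core IKK complex, 1 passed in 1 tissue. Ikbkb (IKK-beta, the kinase of IkB) had 165, 122 and 164 CPM in TNFdARE ileum against 107, 115 and 111 CPM in WT ileum, and 134, 144 and 125 CPM in TNFdARE synovium against 106, 113 and 117 CPM in WT synovium. Its 0.29 ± 0.08 in the synovium passed (adjusted p = 0.0346) and its 0.44 ± 0.12 in the ileum did not (adjusted p = 0.0755). The synovial call did not survive leaving out any single library. Chuk (IKK-alpha, the kinase of the non-canonical branch) had 110, 117 and 110 CPM in TNFdARE ileum against 124, 127 and 121 CPM in WT ileum, and 57.4, 56.6 and 54.9 CPM in TNFdARE synovium against 58.6, 53.0 and 61.5 CPM in WT synovium. It was the only gene of the 42 with every TNFdARE ileum library below every WT ileum library, at -0.14 ± 0.06 (adjusted p = 0.197). Ikbkg (NEMO, the regulatory subunit) had 54.7 to 58.3 CPM in TNFdARE ileum against 47.6 to 57.3 CPM in WT ileum, and 52.8 to 56.5 CPM in TNFdARE synovium against 46.6 to 53.2 CPM in WT synovium.

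The IKK-related kinases, which act on interferon regulatory factors as well, differed from each other. Ikbke had 207, 118 and 161 CPM in TNFdARE ileum against 105, 117 and 121 CPM in WT ileum, and 64.4, 55.8 and 62.6 CPM in TNFdARE synovium against 21.3, 30.5 and 25.1 CPM in WT synovium. It rose by 1.28 ± 0.14 in the synovium (adjusted p = 0.00132), where the groups did not overlap, and had 0.51 ± 0.20 in the ileum (adjusted p = 0.146). Tbk1 had 95.4, 91.1 and 92.4 CPM in TNFdARE ileum against 98.7, 103 and 90.6 CPM in WT ileum, and 53.9, 56.7 and 55.3 CPM in TNFdARE synovium against 46.0, 48.6 and 53.1 CPM in WT synovium. Its -0.07 ± 0.07 (adjusted p = 0.569) and 0.20 ± 0.08 (adjusted p = 0.112) did not pass.

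Among the genes of MAP3K kinases and their partners, those of NIK and TPL2 rose in both tissues. With replicate number as a block neither passed in the ileum (adjusted p = 0.0512 for Map3k14 and 0.056 for Map3k8). No gene of the TAK1 complex passed in either tissue. Map3k14 (NIK) had 29.8, 18.7 and 29.1 CPM in TNFdARE ileum against 10.4, 12.8 and 9.92 CPM in WT ileum, and 38.4, 37.7 and 36.7 CPM in TNFdARE synovium against 26.0, 25.1 and 24.6 CPM in WT synovium. It rose by 1.23 ± 0.21 in the ileum (adjusted p = 0.0404) and by 0.60 ± 0.07 in the synovium (adjusted p = 0.00196). Map3k8 (TPL2, which is held by the Nfkb1 precursor and activates the ERK pathway) had 15.1, 6.12 and 11.2 CPM in TNFdARE ileum against 3.67, 3.94 and 2.88 CPM in WT ileum, and 26.6, 24.7 and 22.4 CPM in TNFdARE synovium against 16.7, 13.7 and 14 CPM in WT synovium. It rose by 1.63 ± 0.34 (adjusted p = 0.0481) and by 0.76 ± 0.11 (adjusted p = 0.0046). Neither gene overlapped between genotypes.

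Of the TAK1 complex, Map3k7 encodes the kinase and Tab1, Tab2 and Tab3 its partners. Map3k7 had 82.9, 75.2 and 79.9 CPM in TNFdARE ileum against 69.4, 73.5 and 79.4 CPM in WT ileum, and 102, 105 and 102 CPM in TNFdARE synovium against 106, 93.6 and 93.9 CPM in WT synovium. Tab3 had 26.4, 28.1 and 25.1 CPM in TNFdARE ileum against 25.2, 24.0 and 25.3 CPM in WT ileum, and 15.8, 18.5 and 16.4 CPM in TNFdARE synovium against 16.9, 14.7 and 15.9 CPM in WT synovium. Log2 fold changes of the 4 genes ran up to 0.14, from 0.00, in the ileum and up to 0.18, from 0.03, in the synovium. The smallest adjusted p was 0.0621, for Tab2 in the synovium, with 152 to 154 CPM in TNFdARE libraries against 135 to 141 CPM in WT libraries. Tab1 lay between 25.9 and 33.5 CPM over all 12 libraries.

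Bcl10 and Malt1 form the CBM complex that links antigen receptors to NF-kB, and both rose in the synovium. Malt1, its protease, had 93.1, 43.5 and 58.2 CPM in TNFdARE ileum against 34.2, 40.1 and 35.9 CPM in WT ileum, and 58.2, 65.8 and 56.4 CPM in TNFdARE synovium against 27.2, 32.5 and 35.5 CPM in WT synovium. It rose by 0.95 ± 0.12 (adjusted p = 0.00234) in the synovium and had 0.83 ± 0.28 in the ileum (adjusted p = 0.112). Bcl10 had 92.4, 74.1 and 79.7 CPM in TNFdARE ileum against 66.2, 69.6 and 63.7 CPM in WT ileum, and 47.8, 58.4 and 55.1 CPM in TNFdARE synovium against 34.0, 40.2 and 38.4 CPM in WT synovium. Its synovial rise was 0.55 ± 0.11 (adjusted p = 0.0118), against 0.31 ± 0.10 in the ileum (adjusted p = 0.0941). The genotypes did not overlap for either gene in either tissue.

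The list also holds 2 genes found as TNF-induced transcripts. Tnfaip2 had 341, 70.9 and 185 CPM in TNFdARE ileum against 36.0, 17.9 and 30.5 CPM in WT ileum, and 263, 227 and 214 CPM in TNFdARE synovium against 135, 149 and 140 CPM in WT synovium. Its ileum value, 2.83 ± 0.61, narrowly missed the threshold (adjusted p = 0.053, or 0.0235 with the block), while the smaller synovial rise of 0.76 ± 0.09 passed (adjusted p = 0.00205). TNFdARE ileum replicate 1 had several times the level of replicate 2. Tnfaip8, a regulator of cell survival, had 45.4, 22.9 and 38.6 CPM in TNFdARE ileum against 16.9, 14 and 14.6 CPM in WT ileum, and 52.1, 51.4 and 53.3 CPM in TNFdARE synovium against 25.1, 36.2 and 30.4 CPM in WT synovium. It rose by 1.24 ± 0.25 (adjusted p = 0.0469) and by 0.80 ± 0.13 (adjusted p = 0.00595), and opposite-strand exons of another gene cover 12.7% of its exonic length.

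The 3 TNFdARE ileum libraries differed from each other in a shared way across the list. Replicate 1 was the highest of the 3 in 37 of 42 genes, against 38.3% of all genes tested, and replicate 2 the lowest in 36 of 42, against 39.4% of all genes. The median coefficient of variation over the 42 genes was 22.4% in TNFdARE ileum, where all genes had 13%, and 7.96% in WT ileum, where all genes had 9.18%. In TNFdARE synovium it was 6.18% and in WT synovium 8.52%, each beside 10.5% for all genes. The summed macrophage, T cell, B cell and neutrophil markers were also highest in replicate 1 and lowest in replicate 2: neutrophil genes summed to 450, 78.2 and 252 CPM, T cell genes to 230, 77.7 and 178 CPM and B cell genes to 221, 14.5 and 57.7 CPM. The corresponding WT ileum sums were 6.79 to 11.6, 65.0 to 92.3 and 9.56 to 14.7 CPM, and epithelial genes ran the other way, at 13300, 18000 and 16100 CPM in TNFdARE ileum against 18800 to 20100 CPM in WT ileum. The part of these cell types in the spread was not tested.

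**Figure D3:**
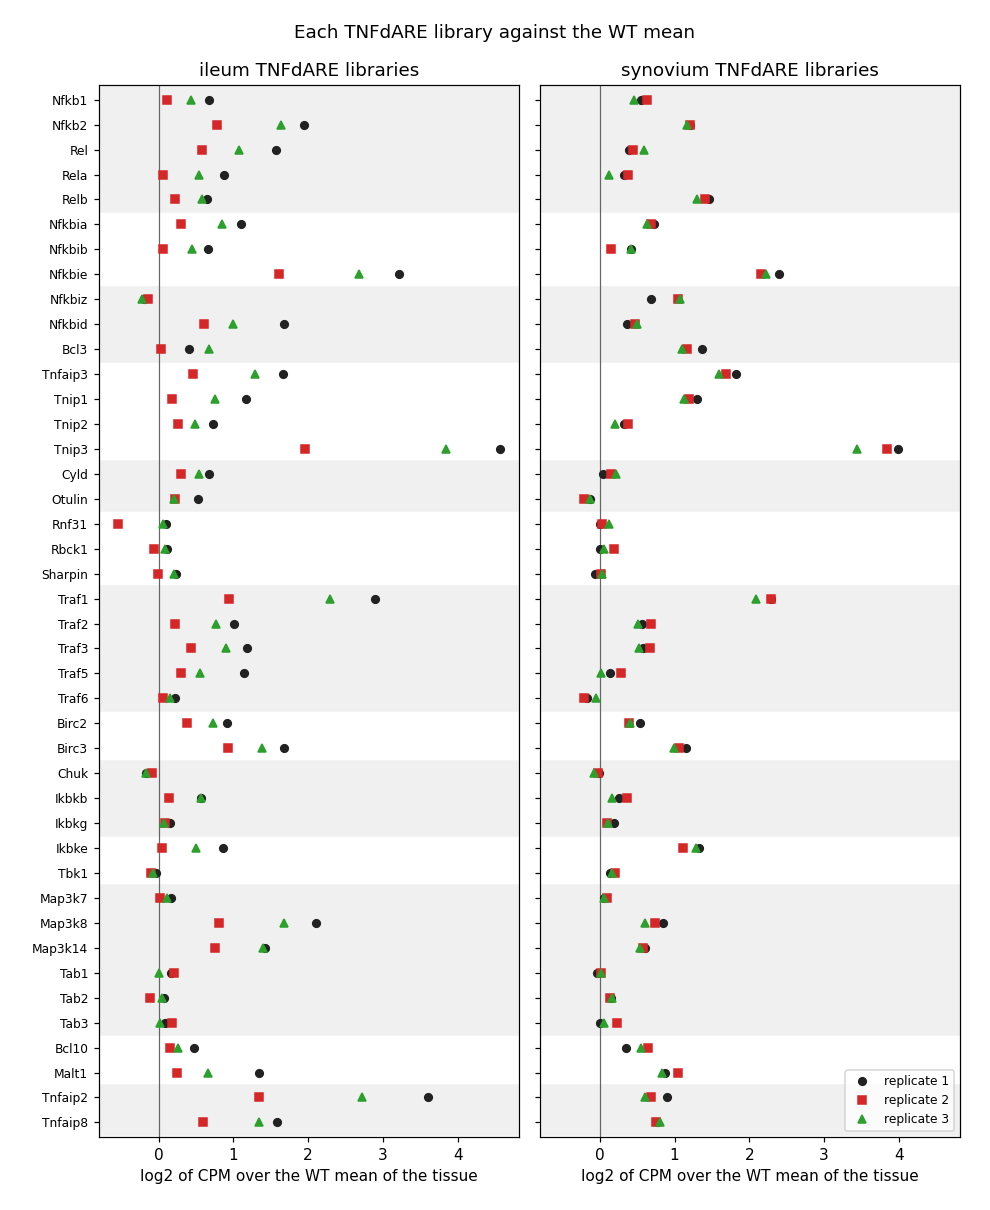
Log2 ratio of each TNFdARE library's CPM to the WT mean of the same tissue, for the 42 genes in the ileum (left) and the synovium (right). In the ileum replicate 1 lies highest in 37 genes and replicate 2 lowest in 36, while the synovium replicates lie close together.

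Whether the TNFdARE effect differed between tissues was tested as an interaction over all 12 libraries, where 3 of the 42 genes (Relb, Nfkbiz and Bcl3) had a larger effect in the synovium and 0 a smaller one by edgeR. Among 16964 genes tested, 5.28% were called in the first direction, 6.80% in the other and 12.1% in either, and the 3 genes are 7.14% of the list, above the share in their own direction and below that in either. At an unadjusted p under 0.05 edgeR had 5 of the 42 higher and 6 lower, limma-voom called 3 and 0, and DESeq2 6 and 1. The median of the 42 was -0.11 beside -0.08 for all genes. The effect on Nfkbiz was larger in the synovium by 1.13 ± 0.21 (adjusted p = 0.00907), that on Relb by 0.89 ± 0.16 (adjusted p = 0.00863) and that on Bcl3 by 0.82 ± 0.21 (adjusted p = 0.0324). Bcl3 missed the threshold without synovium TNFdARE replicate 1 (adjusted p = 0.0659) or 3 (adjusted p = 0.0523) and without synovium WT replicate 2 (adjusted p = 0.0571), over a range of 0.0107 to 0.0659 across single left-out libraries. Relb and Bcl3 lie 179.0 kb apart on chromosome 7. Ikbke (0.74 ± 0.26, adjusted p = 0.0857), Map3k14 (-0.65 ± 0.23, adjusted p = 0.0838) and Tnfaip2 (-2.09 ± 0.62, adjusted p = 0.0531) did not pass, and with replicate number as a block Tnfaip2 did (-1.90, adjusted p = 0.0104). Without TNFdARE ileum replicate 1, Ikbke and Tnip1 joined the 3 calls. Without TNFdARE ileum replicate 2, 11 of the 42 were called, among them Tnfaip2 at -2.40 (adjusted p = 0.00274).

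**Figure D4:**
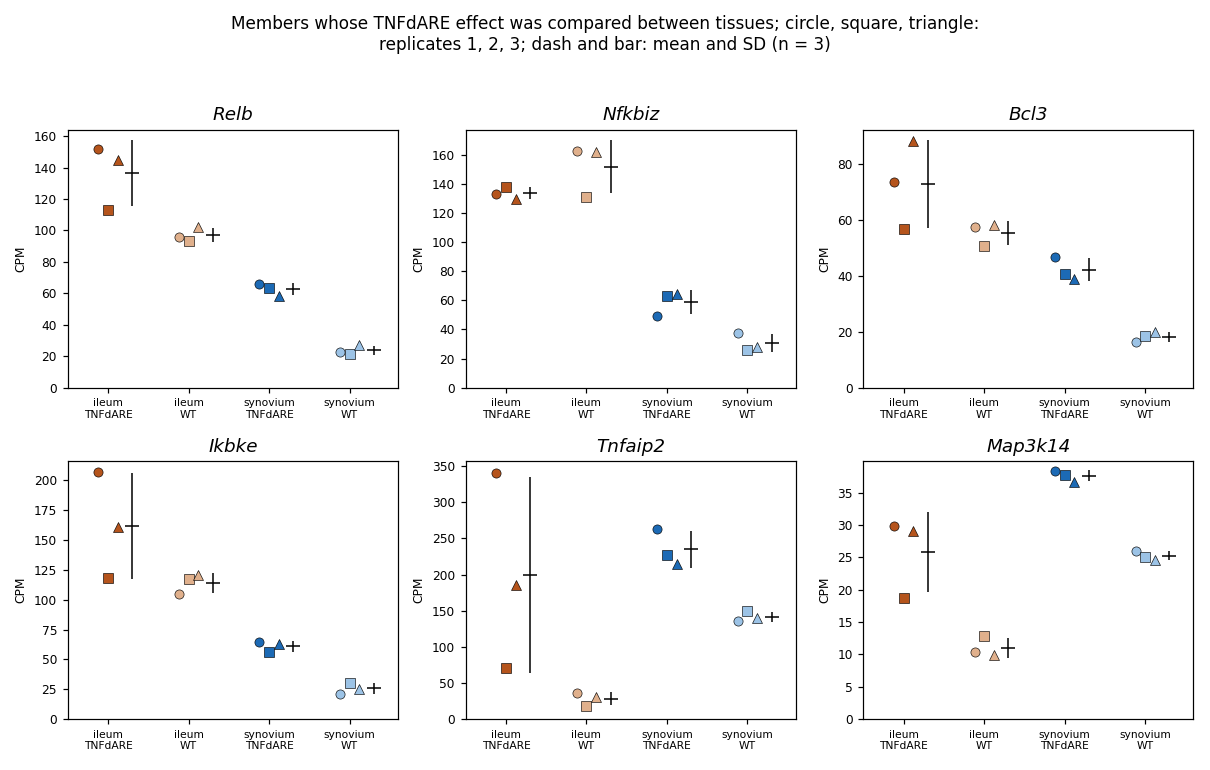
CPM per library in the 4 groups for the 3 genes whose TNFdARE effect was larger in the synovium (Relb, Nfkbiz, Bcl3) and for 3 with an adjusted p between 0.05 and 0.1 (Ikbke, Tnfaip2, Map3k14). In the upper row the ileum genotypes lie close together or overlap, whereas the synovium genotypes do not.

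Without the mutation, most of the 42 genes already differed between the tissues, though in a smaller share than among all genes. Between WT synovium and WT ileum, 12 of the 42 genes were higher in synovium, 16 lower and 14 did not pass (66.7% called), against 38.2% of all genes called higher, 36.0% lower and 74.2% either way, and the list's median was -0.17 beside 0.03. The WT libraries did not overlap in 13 genes higher in synovium and 20 lower, against 40.3% and 38.2% of all genes. The largest differences toward the synovium were those of Tnfaip2 (2.33 ± 0.46, adjusted p = 0.000862), Map3k8 (2.08 ± 0.28, adjusted p = 4.13e-05), Map3k14 (1.19 ± 0.16, adjusted p = 5.31e-05), Tnfaip8 (1.01 ± 0.22, adjusted p = 0.00148), Tnip2 (1.00 ± 0.11, adjusted p = 1.29e-05), Nfkbie (0.97 ± 0.33, adjusted p = 0.0214) and Rela (0.92 ± 0.17, adjusted p = 0.000548). Otulin (0.76 ± 0.17), Rel (0.68 ± 0.21), Traf5 (0.53 ± 0.19), Traf3 (0.42 ± 0.16) and Map3k7 (0.40 ± 0.07) were also higher in WT synovium.

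The 16 genes lower in WT synovium came from several roles. Nfkbiz differed by -2.32 ± 0.16 (adjusted p = 1.54e-07), Ikbke by -2.15 ± 0.19 (adjusted p = 1.75e-06), Relb by -2.02 ± 0.12 (adjusted p = 5.82e-08), Bcl3 by -1.61 ± 0.15 (adjusted p = 2.76e-06), Tnfaip3 by -1.50 ± 0.25 (adjusted p = 0.000303) and Tnip1 by -1.22 ± 0.20 (adjusted p = 0.000211). Of the 15 genes that passed in neither comparison by genotype, 6 were lower in WT synovium, 3 (Otulin, Traf5 and Map3k7) were higher and 6 did not pass. Among those lower were Chuk at -1.10 ± 0.07, Tbk1 at -0.99 ± 0.07, Rnf31 at -0.83 ± 0.17, Tab3 at -0.65 ± 0.09 and Rbck1 at -0.51 ± 0.08. Nfkbib (-0.89 ± 0.16), Bcl10 (-0.83 ± 0.11), Birc3 (-0.49 ± 0.16), Birc2 (-0.48 ± 0.12) and Cyld (-0.40 ± 0.10) complete the 16. The calls of Nfkbie, Traf3, Traf5 and Birc3 each failed without at least 1 WT library, leaving between 25 and 32 calls over all single omissions. Nfkbie lost its call without ileum WT replicate 2 or 3 or synovium WT replicate 3, Traf3 without ileum WT replicate 1 or 3 or synovium WT replicate 1 or 3, Traf5 without replicates 2 or 3 of either WT group, and Birc3 without synovium WT replicate 2. With library size as the only scaling the median of all genes stood at 0.17, and Birc3 and Cyld did not pass. These tissue differences are of whole tissues with unlike cells, as the epithelial and fibroblast sums above show, and their part was not tested.

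**Figure D5:**
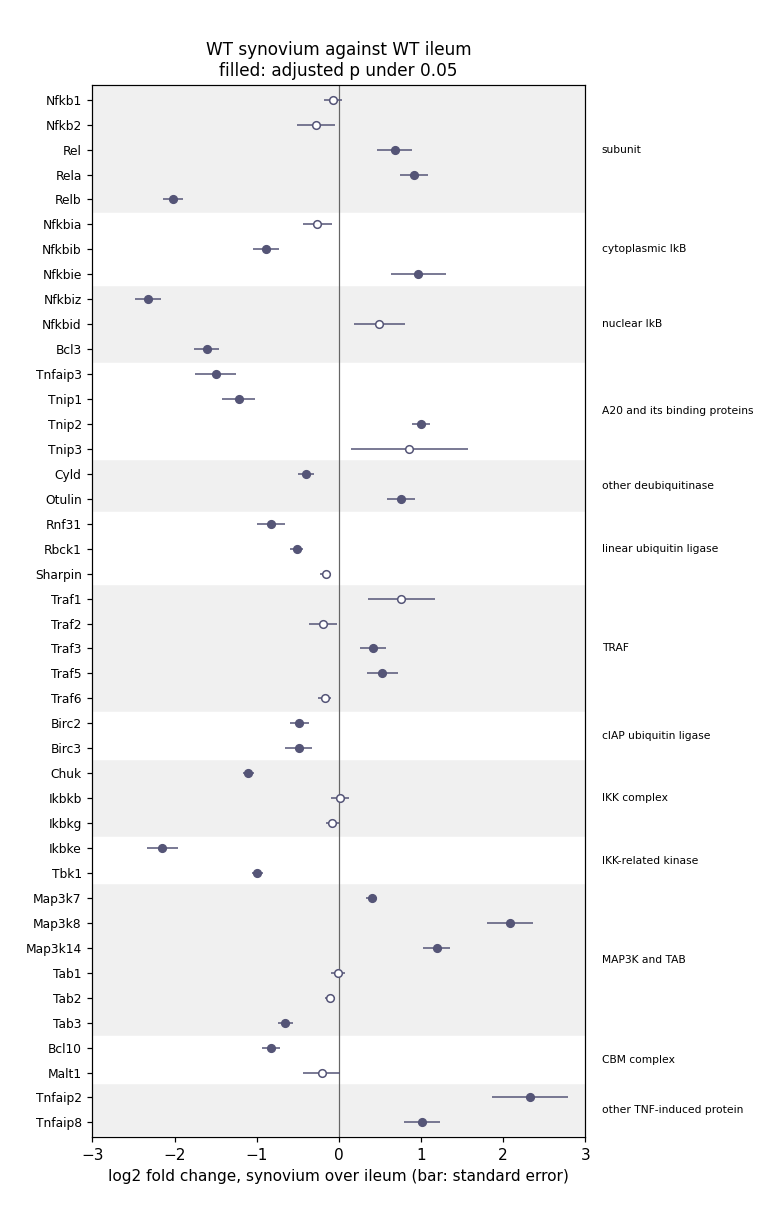
Log2 fold change of WT synovium over WT ileum for the 42 genes, grouped by role, with bars of 1 standard error and filled points for an adjusted p under 0.05. Relb, Nfkbiz, Bcl3 and Ikbke lie farthest to the left, and Map3k8 and Tnfaip2 farthest to the right.

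Divided by transcript length, the genes could be ranked within a group. The length used was 954 bases for Tnfaip8 and 1577 bases for Tnip3. All annotated exons of these genes cover 10328 and 10916 bases, so their levels per kilobase depend on that choice. Nfkbia had the highest level per kilobase in each group, 146 CPM per kb in TNFdARE ileum against 85 in WT ileum and 114 in TNFdARE synovium against 71.1 in WT synovium. In TNFdARE ileum it was followed by Relb at 62.1 CPM per kb and Tnip1 at 60.4, which had 44.0 and 35.6 CPM per kb in WT ileum. In TNFdARE synovium it was followed by Tnfaip2 at 66.6 CPM per kb and Tnfaip8 at 54.8, which had 40.1 and 32.1 CPM per kb in WT synovium. Tnip3 was the lowest of the 42 in both WT groups but not in the TNFdARE groups, where Tab3 was lowest at 4.17 CPM per kb in the ileum and 2.66 in the synovium. Tnip3 had 7.09 CPM per kb in TNFdARE ileum against 0.506 in WT ileum and 12.7 in TNFdARE synovium against 0.924 in WT synovium. Nfkbie reached 23.5 CPM per kb in TNFdARE ileum against 3.75 in WT ileum, and 35.1 in TNFdARE synovium against 7.33 in WT synovium, so that among the IkB genes it stayed below Nfkbia in all 4 groups.

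The promoter matches can be set beside the calls. Of the 14 genes with a kappaB consensus in a window, 11 rose in the synovium and 6 in the ileum. Of the 19 genes with a window and no match, 8 rose in the synovium and 3 in the ileum. Among all genes tested, 13.1% rose in the synovium and 4.12% in the ileum. The share that rose among all genes with the consensus was not computed, so no link of motif and call can be read from these counts. The genes with a match and no call in either tissue were Nfkbid and Map3k7. The 8 genes that rose in the synovium without a match were Birc2, Birc3, Ikbke, Map3k14, Rela, Tnip2, Traf1 and Traf2. A missing match says only that these letters are not in those bases. The gene sets were not tested against each other.

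Other genes of the pathway gave a mixed picture. Of 27 receptors and adaptors tested, 2 rose and 0 fell in the ileum (median 0.27) and 13 rose and 2 fell in the synovium (median 0.39). The share that rose was 7.41% in the ileum and 48.1% in the synovium, beside 4.12% and 13.1% of all genes, and the share that fell in the synovium was 7.41% beside 10.7%. The ileum count of 2 was 4 with the block, 8 with DESeq2, 9 with all 12 libraries and 0 with limma-voom, and without TNFdARE replicate 2 it was 14, with 2 lower. Tlr2, a receptor of bacterial lipoproteins, had 78.6, 16.9 and 41.0 CPM in TNFdARE ileum against 14.8, 13 and 12.2 CPM in WT ileum, and 268, 213 and 214 CPM in TNFdARE synovium against 27.4, 33.6 and 30.3 CPM in WT synovium. It rose by 2.96 ± 0.12 in the synovium (adjusted p = 6.47e-05) and had 1.78 ± 0.54 in the ileum (adjusted p = 0.0945). Tank, a TRAF-binding adaptor of the IKK-related kinases, rose by 0.77 ± 0.07 in the synovium (adjusted p = 0.000642). The ileum calls were Irak3, an inhibitor of Toll-like receptor signalling (2.04 ± 0.32, adjusted p = 0.0404), and Cd40, a TNF receptor family member of antigen-presenting cells (2.26 ± 0.46, adjusted p = 0.0479). Both effects were smaller in the synovium by the interaction test.

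Of 22 further regulators, 0 rose and 1 fell in the ileum (median -0.11), and 3 rose and 0 fell in the synovium (median 0.03). The 13.6% that rose in the synovium is close to the 13.1% of all genes. The single gene that fell in the ileum is 4.55% of the list, beside 1.57% of all genes. Without TNFdARE replicate 2, 2 rose and 4 fell in the ileum. The gene that fell was Tifa, an adaptor that oligomerises TRAF6, which had 76.9, 81.5 and 111 CPM in TNFdARE ileum against 163, 147 and 170 CPM in WT ileum, and 39.6, 42.6 and 40.4 CPM in TNFdARE synovium against 20.5, 28.1 and 27.0 CPM in WT synovium. It fell in the ileum (-0.83 ± 0.15, adjusted p = 0.041) and rose in the synovium (0.72 ± 0.13, adjusted p = 0.00817), without overlap of the genotypes in either. Zc3h12a, which encodes a ribonuclease that degrades inflammatory messages, rose in the synovium by 0.78 ± 0.08 (adjusted p = 0.00105).

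Of 30 NF-kB target genes outside the list, 12 of the 25 tested rose and 0 fell in the ileum, with a median log2 fold change of 2.57, and 19 of the 28 tested rose and 0 fell in the synovium, with a median of 1.60. The shares that rose were 48.0% and 67.9%, beside 4.12% and 13.1% of all genes. The target genes were chosen with earlier results of these data known, so these shares are a description and not independent support. The ileum count ran from 0 to 21 over single left-out libraries and was 0 with limma-voom. The genes untested there had low counts. C3, the central complement protein, had 4140, 1190 and 2680 CPM in TNFdARE ileum against 129, 79.2 and 97.2 CPM in WT ileum, and 4960, 3970 and 3830 CPM in TNFdARE synovium against 346, 403 and 528 CPM in WT synovium. It rose by 4.72 ± 0.53 in the ileum (adjusted p = 0.0389) and by 3.35 ± 0.20 in the synovium (adjusted p = 0.000216). Icam1, an adhesion molecule for leukocytes, rose by 2.73 ± 0.41 (adjusted p = 0.0404) and by 2.46 ± 0.15 (adjusted p = 0.000246). Mmp9, a gelatinase of neutrophil granules, had 147, 84.8 and 105 CPM in TNFdARE ileum against 8.04, 5.33 and 7.81 CPM in WT ileum, and 565, 1010 and 952 CPM in TNFdARE synovium against 995, 1380 and 1050 CPM in WT synovium. It rose in the ileum (3.99 ± 0.27, adjusted p = 0.0305), beside the neutrophil sums given above, and had -0.41 ± 0.24 in the synovium (adjusted p = 0.267), where neutrophil genes summed to 1400 to 5560 CPM in TNFdARE libraries and 1430 to 4610 CPM in WT libraries. The part of neutrophils was not tested. The ileum calls of Irak3, Cd40, Tifa, C3, Icam1 and Mmp9 were all lost without TNFdARE ileum replicate 3 or any WT ileum library, and those of Cd40 and Tifa also without TNFdARE ileum replicate 1.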

How the data were processed

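RNA of ileum and ankle synovium was measured in 12 poly-A libraries, 3 for each tissue and genotype, made with a stranded kit and sequenced as single reads of 100 cycles, per the labels' protocols. Adapter trimming and alignment tools, cutadapt 1.15 and Bowtie2 2.3.3.1, and the build GRCm38 are named in the submitters' processing notes. Not given in the sources used here are the annotation release, the counting tool and its strand setting. For each Ensembl gene, raw counts without normalization were deposited by the authors. Their FPKM table was not used, because identical values recur between libraries. Symbols and coordinates came from GENCODE vM21 (98.7% of identifiers matched), and promoter sequences from RefSeq.

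Each tissue was fitted on its 6 libraries in R 4.3.3 with edgeR 4.0.16: filterByExpr, TMM scaling, robust quasi-likelihood F test, two-sided, Benjamini-Hochberg adjustment over all genes tested, threshold 0.05. The interaction and the WT tissue contrast used 1 model of the 4 groups over 12 libraries. Adjusted p-values are edgeR's unless another tool is named. CPM used TMM-scaled totals; CPM per kb divided by the median length of coding transcripts. DESeq2 1.42.0, limma-voom 3.58.1, other scalings, no filter, a replicate block and leaving out each library were alternatives, and the procedure was tested on simulated data. A count of 0 allows up to 3 counts, between 0.185 and 0.210 CPM; this floor covers counting error only.

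The members and gene lists were chosen with earlier results of these data known. All members are accounted for; from each list of other pathway genes the 2 called genes with the smallest adjusted p per tissue were named, with Tnf as the modified gene. Replicate numbers were checked as a pairing over 10800 autosomal genes, by correlating deviations from group means. In the ileum, TNFdARE and WT libraries of the same number gave r = 0.233, 0.253 and 0.168; in the synovium r = 0.485, 0.321 and 0.168. Libraries of unlike number gave r from -0.275 to 0.155 in the ileum and from -0.463 to 0.183 in the synovium. TNFdARE synovium replicate 3 had its highest r with WT replicate 2 (0.183), above that with WT replicate 3 (0.168). The pairing was thus weakest for replicate 3, and blocked values are given where they change a call. Between tissues r lay from -0.121 to 0.147, and no pairing was used there. Replicates differed by 11.2 to 92.9 times the Poisson variance, so none was a duplicate of another.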

Additional observations from a re-analysis of the deposited data

Results flagged for a closer look

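Among the 42 genes, the TNFdARE effect differed between tissues by the interaction test (synovium effect minus ileum effect, log2, edgeR, adjusted over all genes) for Relb at 0.89, Nfkbiz at 1.13 and Bcl3 at 0.82. For Relb and Bcl3 all TNFdARE synovium libraries were above all WT synovium libraries, and the ileum values were above 0 but smaller. For Nfkbiz the ileum value was below 0 and did not pass.

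Of the other pathway genes named, Irak3 had -1.46 (adjusted p = 0.023) and Cd40 -1.89 (adjusted p = 0.0341), so that their effects were larger in the ileum. Irak3 missed the threshold without TNFdARE ileum replicate 3, WT ileum replicate 1 or 3, TNFdARE synovium replicate 3 or WT synovium replicate 3, with adjusted p between 0.0525 and 0.0581. Cd40 missed it without any library but TNFdARE ileum replicate 2, with adjusted p between 0.0506 and 0.0805. Tifa differed by 1.53 (adjusted p = 0.00234), lower in TNFdARE ileum and higher in TNFdARE synovium in every library, and Mmp9 by -4.43 (adjusted p = 0.000417).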

How the results depend on the processing

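In the ileum 879 genes and 11 of the 42 were called. Library size only gave 1379 genes, DESeq2 2715 genes and 23 of the 42, limma-voom 0 genes and 0 of the 42, no filter on low counts 7 of the 42, and a fit over all 12 libraries 2722 genes and 24 of the 42. Leaving out single libraries gave 0 to 4633 genes and 0 to 29 of the 42. All 11 kept their direction in every alternative run. In the synovium, leaving out single libraries gave 2141 to 2927 of 3713 genes and 22 to 24 of 26, a fit over all 12 libraries gave 20 of 26, and the 26 kept their direction. The interaction had 2050 genes and 3 of the 42. DESeq2 gave 3193 genes and 7 of the 42, and leaving out single libraries 1015 to 3506 genes and 2 to 11 of the 42. Bcl3 missed the threshold there with library size only (0.74, adjusted p = 0.0518). With replicate number as a block, 14 of the 42 were called in the ileum, 27 in the synovium, 4 for the interaction and 28 between WT tissues; beyond the calls named in the report it changed none among the 42. With library size only, the median of all genes in the ileum stood at 0.11 and that of the interaction at -0.15.

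Reversed signs were met only in genes without a call by genotype. In the ileum Rnf31 had 0.01 and Tbk1 0.04 with library size only; over single left-out libraries Rnf31 ran from -0.20 to 0.09 and Tab2 from -0.02 to 0.07, and Tab2 was 0.00 after rounding with no filter and with all 12 libraries. In the synovium, over single left-out libraries, Otulin ran from -0.24 to 0.11, Rnf31 from -0.02 to 0.16, Chuk from -0.06 to 0.05 and Tab1 from -0.04 to 0.06, and Sharpin reached 0.00. With all 12 libraries Sharpin and Tab1 were 0.00 after rounding, and Chuk was 0.01 with library size only and 0.00 with no filter. The causes were not tested. Depth limits genes such as Tnip3, whose WT levels rest on 8 to 17 counts per ileum library.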
